A study of Mus musculus with 6 samples.

Results

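ADAMTS and ADAM proteases are zinc-dependent enzymes of the metzincin class that cut proteins outside the cell or at its surface. They were followed here through 10 genes taken by name from a table of 24061 gene rows, namely the ADAMTS genes Adamts1, Adamts2, Adamts4, Adamts5, Adamts12 and Adamts14 and the ADAM genes Adam8, Adam12, Adam17 and Adam10. All 10 had a row and all 10 passed the filter on low counts. The table holds RNA sequencing of bulk lung tissue from mice, with 3 libraries in each of 2 groups. Controls had the genotype CCSP/-, the others CCSP/TGFalpha, and doxycycline was given to both for 3 weeks. The promoter of CCSP, a secretory protein of club cells, drives transgenes in lung epithelium, and TGFalpha is a ligand of the epidermal growth factor receptor (EGFR). The labels give no age, strain or number of animals per library, so p-values measure the spread between these libraries only.

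ADAM proteins sit in the cell membrane and release, or shed, the outer parts of other membrane proteins, among them growth factors, cytokines and Notch receptors. ADAMTS proteins lack the membrane anchor, are secreted, carry thrombospondin repeats that hold them in the matrix, and cut matrix proteins. In lung, ADAM17 is best known for releasing tumour necrosis factor and EGFR ligands, TGFalpha included, and several ADAMTS enzymes for cutting the proteoglycan versican or trimming procollagen.

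Libraries held 21479006 to 24914322 counts. The endogenous Tgfa row, which need not hold transgene reads, was at 25.8 ± 2.94 CPM among controls and 27.5 ± 2.09 CPM in CCSP/TGFalpha lungs (mean ± SD, n = 3 per group; edgeR adjusted p = 0.739). CPM, the usual depth-scaled counts, were computed on library sizes scaled by TMM. Epithelial markers of lung were abundant, with a 6-gene sum of 9142 to 13340 CPM among controls and 9102 to 12160 CPM in CCSP/TGFalpha lungs. Of the 6 genes, Scgb1a1, which encodes CCSP itself, fell from 4736 ± 1892 to 1895 ± 313 CPM (edgeR adjusted p = 0.0491). That call held without control replicate 2 but not without any of the other 5 libraries (0.0799 to 0.165). Control replicate 1 and TGFalpha replicate 1 stood apart in 7 skeletal muscle markers (sums of 1284 and 2171 CPM, against 51.9 to 68.9 CPM in the other 4 libraries). Mesothelial markers were low in control replicate 3 (23.2 CPM, against 215 and 219 CPM in the other controls). Results below are therefore also given without both muscle-bearing libraries where that matters.

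Of the 10 genes, 5 rose in CCSP/TGFalpha lungs and none fell, at a Benjamini-Hochberg adjusted p under 0.05 by edgeR over 16089 genes. The 5 were Adamts12, Adamts4, Adam12, Adamts14 and Adamts2. Among all genes tested 8.33% changed (5.03% rose and 3.29% fell). None of the 10 was lower at an unadjusted p under 0.05, and none fell by DESeq2 or limma-voom, which both called 5 as higher. The median log2 fold change of the 10 genes was 0.74, against 0.01 over all genes. For 6 of them every CCSP/TGFalpha library was above every control library, as for 17.7% of all genes, and for none was it below (15.5%). The groups were apart in either direction for 33.2% of all genes. The number that rose was 3 without control replicate 2, 2 without control replicate 3 and 3 without TGFalpha replicate 2. With both muscle-bearing libraries left out it was 4.

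**Figure D1:**
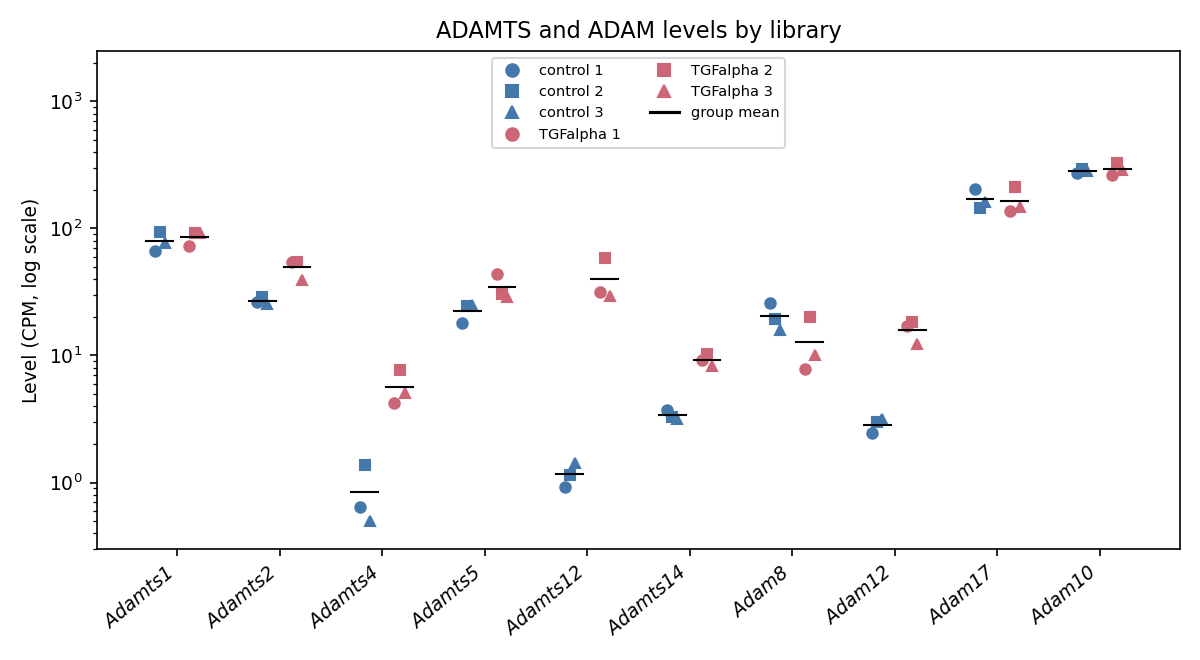
Level of each ADAMTS and ADAM gene in the 6 libraries, in CPM on a log axis, with 1 symbol per library and a black line at each group mean. The CCSP/TGFalpha libraries lie above all controls for 6 genes, with the widest gap for Adamts12, and the groups overlap for Adamts1, Adam8, Adam17 and Adam10.

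Adamts12, which with its closest relative Adamts7 is known for cutting cartilage oligomeric matrix protein, gave the largest change of the 10. Its controls held 23, 25 and 31 counts, or 0.923, 1.15 and 1.42 CPM. The CCSP/TGFalpha libraries held 745, 1414 and 698 counts, or 31.7, 58.1 and 29.2 CPM. The gene thus went from close to undetected to a level that every CCSP/TGFalpha library shared, with TGFalpha replicate 2 highest. The change was 34.1-fold (95% interval 19.6 to 59.3), or 5.09 ± 0.35 on the log2 scale (± SE), with an edgeR adjusted p of 0.000544. It ranked 30 of 16089 by log2 fold change and 9 by p. No single library carried it, since with any 1 left out the log2 fold change was 4.71 to 5.26 and the edgeR adjusted p 0.000741 to 0.0129. Adamts12 (gene ID 239337) lies on chromosome 15, 11064773 to 11349232 (GRCm38), on the plus strand.

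Adamts2 and Adamts14, which encode enzymes that remove the amino-terminal propeptide of fibrillar procollagens so that fibrils can form, both rose. Adamts2 (gene ID 216725; chromosome 11, 50602085 to 50807573) was at 26.4, 28.7 and 25.6 CPM among controls and at 54.1, 54.3 and 39.4 CPM in CCSP/TGFalpha lungs. Adamts14 (gene ID 237360; chromosome 10, 61197112 to 61273419) was at 3.69, 3.30 and 3.15 CPM among controls and at 9.22, 10.3 and 8.21 CPM in CCSP/TGFalpha lungs. The groups did not overlap for either gene, and controls of both lay close together. Adamts2 overlaps noncoding genes on the opposite strand that have no row of their own in the table. The rise was 1.83-fold for Adamts2 (95% interval 1.40 to 2.39, edgeR adjusted p = 0.0232) and 2.73-fold for Adamts14 (1.88 to 3.96, adjusted p = 0.0122). The third procollagen amino-proteinase gene of this kind, Adamts3, was at 2.55 ± 0.444 and 5.50 ± 1.97 CPM and did not pass (log2 fold change 1.11 ± 0.34, adjusted p = 0.0825). The Adamts2 call was lost without control replicate 1, 2 or 3 (adjusted p = 0.0518, 0.0766 and 0.118), without TGFalpha replicate 1 or 2 (0.0806 and 0.064) and without both muscle-bearing libraries (0.102). The Adamts14 call was lost without control replicate 2 or 3 (adjusted p = 0.0562 and 0.0668).

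The genes of the proteoglycan-cutting enzymes, also called aggrecanases or versicanases, differed widely in their values. Adamts4 (gene ID 240913; chromosome 1, 171250129 to 171262267) held 16, 30 and 11 counts in controls and 100, 187 and 120 counts in CCSP/TGFalpha libraries. In CPM this was 0.642, 1.38 and 0.502 against 4.25, 7.69 and 5.03, with no overlap between the groups. The rise was 6.72-fold (95% interval 3.19 to 14.1, edgeR adjusted p = 0.0155), the second largest of the 10. With control replicate 3 absent the adjusted p was 0.0751, and with TGFalpha replicate 2 absent 0.0549. Part of Adamts4 is shared with the opposite strand, and without a stated strand setting the reads there cannot be assigned to it with certainty.

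Adamts5 and Adamts1 lie next to each other on chromosome 16, both on the minus strand, with 55.0 kb between them. Adamts5 (gene ID 23794; 85858157 to 85901125) encodes the main aggrecanase of mouse cartilage, and Adamts1 (gene ID 11504; 85793827 to 85803113) a versican-cutting enzyme known from the ovary and vessels. Adamts5 was at 18.0, 24.3 and 25.2 CPM among controls and 43.8, 30.3 and 28.9 CPM in CCSP/TGFalpha lungs, so that every CCSP/TGFalpha library was higher. It did not pass the test (log2 fold change 0.61 ± 0.22, unadjusted 95% interval 0.12 to 1.10, edgeR adjusted p = 0.116). TGFalpha replicate 1, 1 of the muscle-bearing libraries, was the highest, and without both of these the log2 fold change was 0.25 (adjusted p = 0.516). Adamts1 was at 66.4, 94.2 and 76.2 CPM among controls and 72.4, 91.2 and 92.3 CPM in CCSP/TGFalpha lungs, with overlapping groups. Its log2 fold change of 0.11 ± 0.18 had an interval of -0.30 to 0.52, which leaves out a change as large as that of Adamts4 or Adamts12.

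Adam12 was the ADAM gene among the 5 that rose. It encodes a protease of muscle precursors and activated stromal cells that can shed heparin-binding EGF-like growth factor. Controls were at 2.45, 2.98 and 3.15 CPM (61, 65 and 69 counts) and CCSP/TGFalpha libraries at 17.1, 18.2 and 12.3 CPM (402, 443 and 294 counts). The lowest CCSP/TGFalpha library was far above the highest control. The rise was 5.55-fold (95% interval 3.76 to 8.19; edgeR adjusted p = 0.00204), and with any 1 library left out the adjusted p stayed between 0.00315 and 0.0195. Without both muscle-bearing libraries the log2 fold change was 2.31 (adjusted p = 0.0156), against 2.47 with all libraries. Adam12 (gene ID 11489) spans chromosome 7 from 133883199 to 134225097 on the minus strand.

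Adam10 and Adam17, the main shedding enzymes, were the most abundant of the 10 and did not pass the test. Adam10 (gene ID 11487; chromosome 9, 70678944 to 70780229), which starts the cleavage of ligand-bound Notch receptors, was at 271, 291 and 282 CPM among controls and 262, 329 and 290.3 CPM in CCSP/TGFalpha lungs. Its log2 fold change was 0.06 ± 0.15 (95% interval -0.28 to 0.40; edgeR adjusted p = 0.819). Adam17 (gene ID 11491; chromosome 12, 21323509 to 21373632) was at 203, 146 and 163 CPM among controls and 137, 212 and 147 CPM in CCSP/TGFalpha lungs. Its log2 fold change was -0.05 ± 0.21 (interval -0.53 to 0.44; adjusted p = 0.912). The interval for either gene thus leaves out a doubling or a halving of the transcript in this comparison. Adam17 overlaps the esterase gene Iah1 by 311 bases on the opposite strand.

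Adam8 (gene ID 11501; chromosome 7, 139978932 to 139995207), a protease gene of myeloid cells, had the lowest log2 fold change of the 10 and did not pass either. It was at 25.9, 19.5 and 15.9 CPM among controls and 7.78, 20.1 and 10.1 CPM in CCSP/TGFalpha lungs. The groups overlapped through TGFalpha replicate 2 alone. The log2 fold change was -0.69 ± 0.35 (edgeR adjusted p = 0.249), and it was -1.19 without TGFalpha replicate 2 (adjusted p = 0.0617), -0.43 without TGFalpha replicate 1 (0.536) and -0.23 without both muscle-bearing libraries (0.76). Control replicate 1 and TGFalpha replicate 2 were the highest of their groups for both Adam8 and Adam17. The same pair was highest of its groups for 6 of 8 macrophage markers. The sum of these markers was 18298, 7507 and 5737 CPM among controls and 2678, 15926 and 2448 CPM in CCSP/TGFalpha lungs. Without Chil3, which dominates it, the sum of the other 7 was 1874, 1076 and 846 CPM against 798, 1469 and 707 CPM. The part of macrophage content in the Adam8 and Adam17 values was not tested. None of the 8 macrophage markers passed in either direction by edgeR, DESeq2 or limma-voom, and none had an unadjusted p under 0.05 by edgeR.

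**Figure D2:**
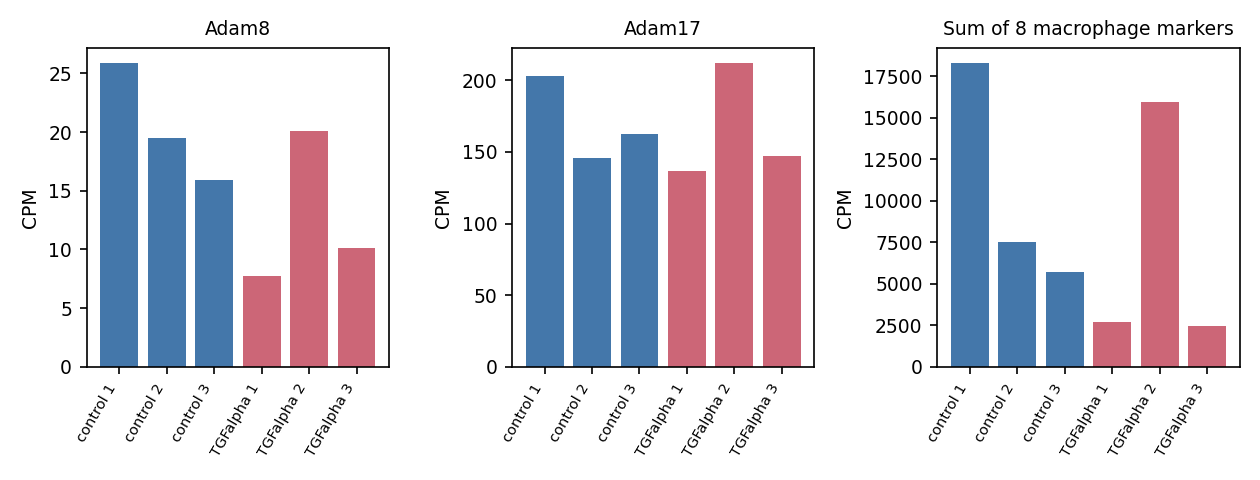
Levels of Adam8 and Adam17 and the sum of 8 macrophage markers in each library, in CPM, with controls in blue and CCSP/TGFalpha lungs in red. In all 3 panels control replicate 1 is the highest control and TGFalpha replicate 2 the highest CCSP/TGFalpha library.

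Levels of different genes can be set side by side only per length, so counts were also expressed as CPM per kilobase of annotated exon. In controls the order was Adam10 (61.3 ± 2.12), Adam17 (37.8 ± 6.52), Adamts1 (16.2 ± 2.88), Adam8 (6.56 ± 1.62), Adamts2 (3.70 ± 0.23), Adamts5 (2.08 ± 0.36), Adamts14 (0.65 ± 0.05), Adam12 (0.37 ± 0.05), Adamts4 (0.17 ± 0.10) and Adamts12 (0.14 ± 0.03), in CPM per kilobase. Adamts4 and Adamts12 were the only neighbours in that order whose library ranges overlapped. In CCSP/TGFalpha lungs Adamts12 moved from the last place to the fifth, at 4.63 ± 1.87 CPM per kilobase. It then overlapped with Adamts2 above it (6.78 ± 1.18) and with Adam8 below it (4.07 ± 2.10), and so did Adam8 with Adamts5, Adam12 with Adamts14 and Adamts14 with Adamts4. The first 3 places were those of the controls, with no overlap among them.

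The makeup of the transcripts of the 6 ADAMTS genes shifted with these changes. The level per kilobase summed over the 6 ADAMTS genes was 19.9, 26.6 and 22.3 in controls and 32.7, 39.3 and 33.0 in CCSP/TGFalpha lungs. Adamts12 supplied 0.595 ± 0.127% of that sum in controls and 12.9 ± 3.74% in CCSP/TGFalpha lungs. Adamts1 supplied 70.3 ± 2.10% and 50.03 ± 6.30%. These shares describe the same counts and were given no test of their own. They leave out the other ADAMTS genes, so they are not shares of the whole family. Among those left out, Adamts15 had means of 10.1 and 10.7 CPM per kilobase and Adamts9 of 3.24 and 7.82, in controls and CCSP/TGFalpha lungs.

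**Figure D3:**
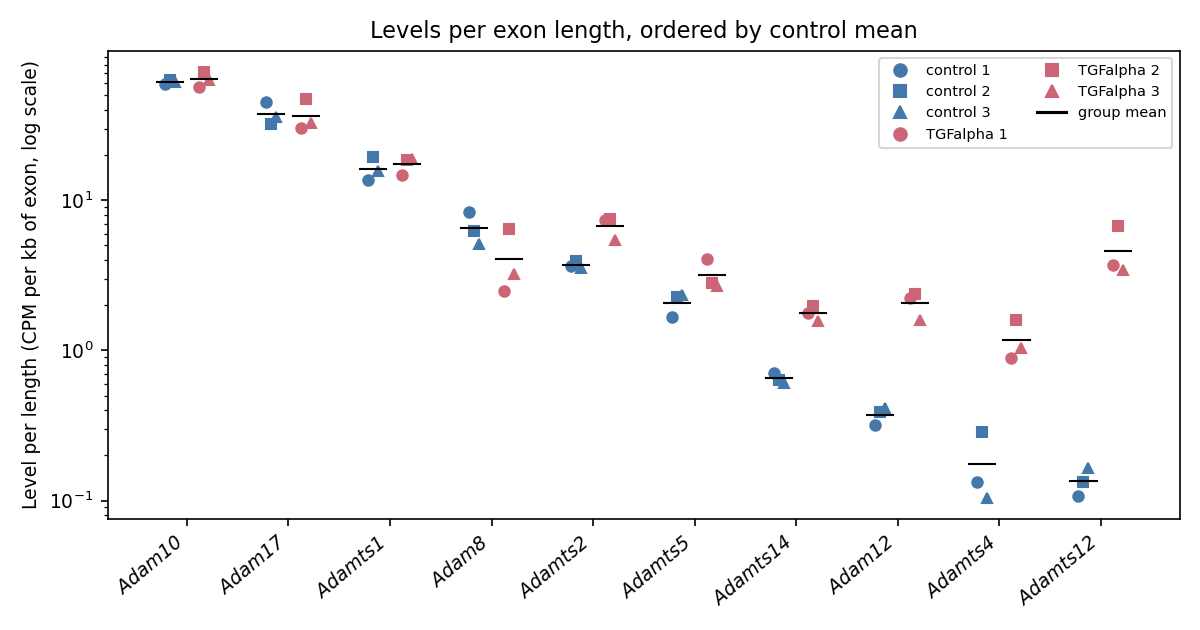
Level per exon length of each of the 10 genes in the 6 libraries, in CPM per kilobase on a log axis, ordered by the control mean. Adam10, Adam17 and Adamts1 lead in both groups, while Adamts12 goes from the lowest control mean (0.14) to 4.63 in CCSP/TGFalpha lungs.

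The rest of the ADAMTS family was followed as background. Of 11 other tested Adamts genes 4 rose by edgeR, 5 by DESeq2 and 3 by limma-voom. None fell by any of these tools, and none was lower at an unadjusted p under 0.05 by edgeR. Adamts7, the closest relative of Adamts12, rose from 2.23 ± 0.732 to 9.95 ± 1.42 CPM (edgeR adjusted p = 0.00798). Adamts9, a versican-cutting enzyme gene, rose from 26.0 ± 6.55 to 62.7 ± 10.6 CPM (adjusted p = 0.0162). Adamts16 had 0 counts in every control and 24, 40 and 22 counts in CCSP/TGFalpha libraries, at least 27.4-fold higher when 3 counts over the control group are taken as the floor (adjusted p = 0.0159). The fourth was Adamts19, at 0.779 ± 0.244 and 4.82 ± 2.78 CPM (adjusted p = 0.0284). Adamts15, another proteoglycan-cutting enzyme gene, was at 59.7 ± 11.6 and 63.4 ± 11.1 CPM (adjusted p = 0.806). The Adamts9 call was lost without control replicate 2 or 3 (adjusted p = 0.0513 and 0.0733). Those of Adamts16 and Adamts19 were lost without control replicate 2 (0.0525 and 0.105), control replicate 3 (0.0625 and 0.13), TGFalpha replicate 1 (0.0601 and 0.0985) or TGFalpha replicate 2 (0.0579 and 0.0709), and without both muscle-bearing libraries (0.0554 and 0.0998). Without control replicate 2 or control replicate 3, 1 of the 11 rose, and 2 did without TGFalpha replicate 1, without TGFalpha replicate 2 or without both muscle-bearing libraries. Over the whole family 8 of 17 tested ADAMTS genes rose, 16 of 17 had a positive log2 fold change, and the median was 0.87. Among all genes tested 5.03% rose, and 7898 of 16089 had a negative log2 fold change. Adamts16 passed the filter on low counts through its CCSP/TGFalpha libraries alone. Adamts13, not tested, held 7, 18 and 7 counts in controls and 4, 6 and 13 in CCSP/TGFalpha libraries. Adamts18, also not tested, held 2, 6 and 7 counts in controls and 0 in each CCSP/TGFalpha library. These family counts therefore depend in part on the filter.

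Among 13 tested somatic ADAM genes Adam12 was the 1 that rose and none fell by edgeR, against 5.03% and 3.29% of all genes tested. The median log2 fold change of the 13 was -0.05. At an unadjusted p under 0.05, 3 were lower, and DESeq2 called 2 and limma-voom 1 as lower. Adam22, which encodes a non-catalytic ADAM of neurons, was closest to the threshold among the others, at 26.3 ± 1.81 and 13.4 ± 4.92 CPM (edgeR adjusted p = 0.0543), and passed as a fall without TGFalpha replicate 3 (0.0164). Whether ADAMTS and ADAM genes differed from each other as groups was not tested. Of 7 ADAMTS-like genes, whose products have the repeats but no protease domain, 1 fell. This was Adamtsl5, from 18.8 ± 3.45 to 10.6 ± 0.348 CPM (adjusted p = 0.037), and its call held without control replicate 1 but not without any of the other 5 libraries (0.0707 to 0.16), nor without both muscle-bearing ones (0.0625).

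**Figure D4:**
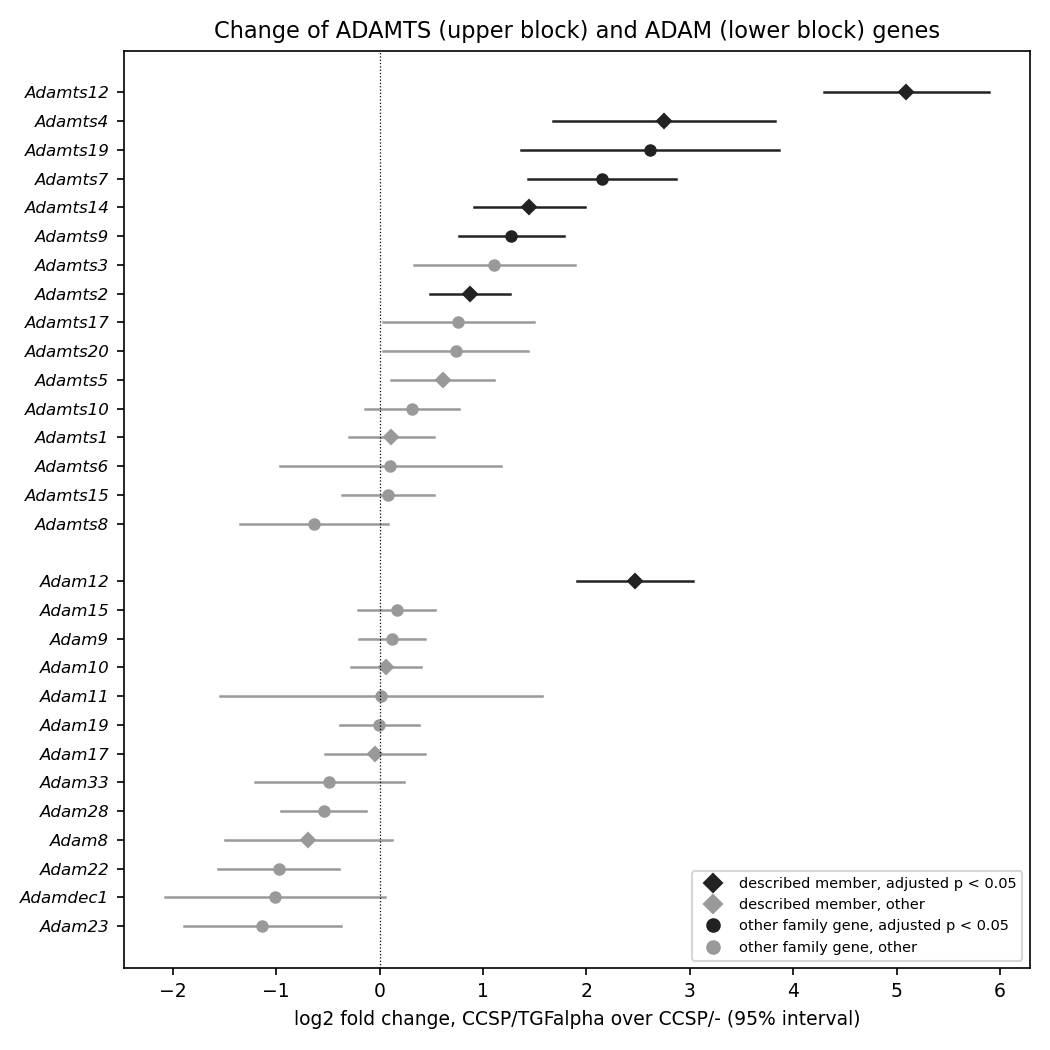
Log2 fold change of each tested ADAMTS gene (upper block) and somatic ADAM gene (lower block) with its unadjusted 95% interval. Diamonds are the 10 genes described, circles are other family genes, and black marks an adjusted p under 0.05. Adamts16, with 0 control counts, is not drawn. Black symbols in the ADAM block are limited to Adam12.

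Genes of known substrates were read beside those of the enzymes. All 6 tested fibrillar procollagen genes, the substrates of Adamts2 and Adamts14, rose (median log2 fold change 2.54), against 5.03% of all genes tested. Col2a1, also listed, was too low to be tested, with 0 counts in each control and 0, 0 and 2 in CCSP/TGFalpha libraries. Of the 6, Col11a1 was low, with 2, 0 and 0 counts in controls and 23, 23 and 40 in CCSP/TGFalpha libraries (edgeR adjusted p = 0.0214). Col11a1 passed the filter on low counts through its CCSP/TGFalpha libraries alone. The number of the 6 that rose was 5 with the stricter filter, at an adjusted p of 0.01 and without both muscle-bearing libraries. It was also 5 without control replicate 2 or 3 or any 1 TGFalpha library, and 6 without control replicate 1. Col5a2 went from 110 ± 8.84 to 656 ± 145 CPM, Col1a2 from 207 ± 41.4 to 1229 ± 249.5 CPM and Col3a1 from 667 ± 78.0 to 3815 ± 1040.1 CPM (edgeR adjusted p = 0.000892, 0.00134 and 0.00217). Of 6 tested proteoglycan and other matrix substrates 3 rose. Vcan, the gene of versican, went from 16.1 ± 3.35 to 417 ± 173 CPM (adjusted p = 0.000621). Bgn and Dcn, the small proteoglycans biglycan and decorin, rose from 777 ± 168 to 1845 ± 131 CPM and from 229 ± 98.3 to 726 ± 309 CPM (adjusted p = 0.0152 and 0.0429). Without control replicate 3, 1 of these substrates rose, since the calls of Bgn (0.068) and Dcn (0.17) were lost. Dcn also missed the threshold when control replicate 2 (0.153), TGFalpha replicate 1 (0.136) or TGFalpha replicate 2 (0.097) was absent. Acan, the gene of the cartilage proteoglycan aggrecan, had 0 counts in all 6 libraries. Comp, the gene of cartilage oligomeric matrix protein, was too low to be tested. It held 2, 8 and 0 counts in controls and 0, 0 and 5 in CCSP/TGFalpha libraries. These lists were chosen with the matrix result of these data known, so their direction is not independent evidence.

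Of 6 tested inhibitor genes 1 rose and none fell by edgeR or limma-voom, while DESeq2 called 1 higher and 1 lower. Over all genes tested 5.03% rose and 3.29% fell by edgeR. At an unadjusted p under 0.05 by edgeR, 2 inhibitor genes were higher and 2 lower. Timp1 went from 7.06 ± 2.46 to 248 ± 100.2 CPM (edgeR adjusted p = 0.00104). Reck, which encodes a membrane-anchored inhibitor, was at 29.9, 54.2 and 57.8 CPM among controls and 19.0, 22.4 and 28.4 CPM in CCSP/TGFalpha lungs, without overlap and just short of the threshold (adjusted p = 0.0542). It passed as a fall by DESeq2 (0.00337), without control replicate 1 (0.0153) and without both muscle-bearing libraries (0.0342). Timp3, whose product is the main tissue inhibitor of ADAM17 and of the ADAMTS aggrecanases, was at 593, 794 and 1058 CPM among controls and 548, 612 and 736 CPM in CCSP/TGFalpha lungs, and did not pass (adjusted p = 0.356). Of 15 tested partner and convertase genes 1 rose and 1 fell. Tspan5, a tetraspanin that guides ADAM10 to the cell surface, went from 43.7 ± 5.17 to 76.4 ± 9.91 CPM (adjusted p = 0.0258), and Pcsk5, a proprotein convertase, from 23.5 ± 3.49 to 12.98 ± 2.78 CPM (0.0435). The Tspan5 call held without TGFalpha replicate 3 but not without any of the other 5 libraries (0.0629 to 0.128), nor without both muscle-bearing ones (0.108). That of Pcsk5 was lost when control replicate 2 or 3 or TGFalpha replicate 1 or 2 was absent (0.102 to 0.163), and without both muscle-bearing libraries (0.0998).

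Of 16 tested genes of membrane proteins known to be shed by ADAM10 or ADAM17, 2 fell and none rose by edgeR or limma-voom. DESeq2 called 6 lower and 1 higher. Over all genes tested 3.29% fell and 5.03% rose by edgeR. At an unadjusted p under 0.05 by edgeR, 7 of the 16 were lower and 2 higher. Of the 2 that were called lower, Notch1 fell from 106 ± 13.1 to 52.5 ± 16.1 CPM (edgeR adjusted p = 0.0387). It missed the threshold with control replicate 2 or 3 absent (0.134 and 0.138), with TGFalpha replicate 1 or 2 absent (0.0734 and 0.0905) and with both muscle-bearing libraries absent (0.0626). Endothelial markers were lower in the same comparison. Of 6 such markers 3 fell by edgeR and limma-voom (Pecam1, Kdr and Tek), 6 by DESeq2, and all 6 had negative log2 fold changes, with a median of -1.17. Their sum was 1778 to 3214 CPM among controls and 921 to 1677 CPM in CCSP/TGFalpha lungs. The 3 edgeR calls were lost with control replicate 2 or 3, or TGFalpha replicate 1 or 2, absent (adjusted p = 0.075 to 0.151). The part of endothelial content in the values of the shed-protein genes was not tested. Of 6 tested EGFR ligands, which these enzymes also release, Ereg (epiregulin) rose, from 0.422 ± 0.316 to 10.7 ± 5.59 CPM (adjusted p = 0.00664). Ereg held 19, 8 and 3 counts in controls and 227, 406 and 135 in CCSP/TGFalpha libraries. Its control counts alone would not have passed the filter on low counts. Epgn, also listed, was too low in both groups to be tested.

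Markers of several cell types were read beside the genes that rose. Over all genes tested 5.03% rose and 3.29% fell by edgeR. Of 8 fibroblast markers 3 rose (Mfap5, Cthrc1 and Lum). Another 3 had negative log2 fold changes, namely Tcf21 (-0.61), Npnt (-0.42) and Pi16 (-0.42). At an unadjusted p under 0.05 by edgeR 1 fibroblast marker was lower. The sum of the list was 620 to 962 CPM among controls and 832 to 1053 CPM in CCSP/TGFalpha lungs. The 6 smooth muscle and myofibroblast markers summed to 200 to 294 CPM and 305 to 741 CPM, with 1 gene up (Tagln) and 1 down (Myh11). Of the 6, 3 had negative log2 fold changes. Tagln went from 61.9 ± 18.2 to 248 ± 101 CPM, and without it the sums of the groups overlapped. The 5 mesothelial markers summed to 23.2 to 219 CPM and 294 to 403 CPM, and 1 of them, Wt1, rose. Wt1 was at 11.2, 12.7 and 0.73 CPM among controls and 144, 131 and 85.0 CPM in CCSP/TGFalpha lungs. Without Wt1 the mesothelial sums of the groups overlapped. The sums of the 6 endothelial markers, given with the shed-protein genes, were lower in CCSP/TGFalpha lungs without overlap. Cartilage markers summed to at most 0.905 CPM in any library, with Acan, Col9a1 and Matn1 at 0. The part of these cell types in the ADAMTS and Adam12 changes was not tested, and in whole lung more cells of a type cannot be told apart from more transcript per cell.

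The genes most like Adamts12, Adam8 and Adam17 over the 6 libraries were sought among 14197 others by Pearson's r of log2 CPM. Adamts12 was followed most closely by the Wnt receptor gene Fzd1 (r = 0.9985), Clip3 (0.9979) and Cygb (0.9977). Adam8 was followed by Itgax (0.9946), which encodes the integrin CD11c of alveolar macrophages and dendritic cells, then Slc31a2 (0.9917) and Tnfaip3 (0.9916). For Adam17 these were Tff2 (0.9908), Jak3 (0.9886) and Ttpal (0.9867). The 6 points span both groups, so r takes in any difference between the groups. Fzd1, Clip3 and Cygb each rose in CCSP/TGFalpha lungs, as Adamts12 did (edgeR adjusted p = 0.000537, 0.00481 and 0.00232). The points also share libraries and depth, and so many genes were compared that high values arise readily. The r values therefore serve as a description.

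Promoter sequence was at hand for 7 of the 10 genes, from RefSeq on GRCm38.p6, as windows of 250 bases before and 50 after a gene start. The upstream 250 bases of the rising genes Adamts2, Adamts12 and Adamts14 are shown because these genes rose and their promoters differ in CG content. They are written 5′ to 3′ on the strand of the gene, with each CG dinucleotide in capitals.
Adamts2 upstream, chr11:50601835-50602084, plus strand: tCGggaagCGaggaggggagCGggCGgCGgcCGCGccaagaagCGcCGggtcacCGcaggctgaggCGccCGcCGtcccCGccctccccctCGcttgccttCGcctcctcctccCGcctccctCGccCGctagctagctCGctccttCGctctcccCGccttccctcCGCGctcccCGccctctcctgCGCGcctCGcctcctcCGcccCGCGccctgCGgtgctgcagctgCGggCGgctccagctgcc
Adamts14 upstream, chr10:61273420-61273669, minus strand: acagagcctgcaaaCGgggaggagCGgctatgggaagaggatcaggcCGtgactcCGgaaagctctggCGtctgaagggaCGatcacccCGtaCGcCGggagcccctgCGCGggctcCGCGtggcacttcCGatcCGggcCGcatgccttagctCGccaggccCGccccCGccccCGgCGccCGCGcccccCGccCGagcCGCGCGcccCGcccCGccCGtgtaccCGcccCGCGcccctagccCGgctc
Adamts12 upstream, chr15:11064523-11064772, plus strand: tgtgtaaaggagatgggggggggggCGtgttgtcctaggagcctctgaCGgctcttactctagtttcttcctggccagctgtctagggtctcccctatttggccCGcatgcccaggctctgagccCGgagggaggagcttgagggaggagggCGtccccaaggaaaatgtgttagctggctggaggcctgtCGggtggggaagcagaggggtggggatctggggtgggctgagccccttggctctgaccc
Adamts2 and Adamts14 had 34 and 35 CG dinucleotides there and Adamts12 had 6, which is the median of all 32851 RefSeq windows. Of all windows 92.1% held at least 1, and 27.3% held 15 or more. Among genes that did not pass, Adam10 had 29, Adam17 had 23, Adamts1 had 15 and Adam8 had 6. The Adam8 window (chr7:139992563-139992812, minus strand) lies inside the gene span given above, so it does not precede the outermost start of that gene. A high CG count was thus found both among genes that rose and among genes that did not pass. The AP-1 motif TGANTCA and the ETS motif CCGGAAGT, searched on both strands, were in none of the 7 windows of 300 bases, and in 7.81% and 3.89% of all windows.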

How the data were processed

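Total RNA of mouse lung, extracted on columns and turned into Illumina libraries, per the labels, was measured in 6 libraries. The authors deposited raw gene counts, whole numbers with no normalization. Per the submitters' processing notes the tools were bcl2fastq, CASAVA 1.8, TopHat and DESeq with build mm10. The counting tool, its strand setting and the annotation are not given in the sources used here. Symbols and coordinates came from RefSeq genes on GRCm38.p6 (23976 of 24061 rows named), and exon lengths from GENCODE M21 on the same build. Protein sequences were not used here.

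Groups were compared in edgeR 4.0.16 (R 4.3.3) by its quasi-likelihood test after TMM scaling and filterByExpr, with genotype as the single term. P-values were adjusted by Benjamini-Hochberg over 16089 genes (threshold 0.05). Counts at an unadjusted p under 0.05 are given without a share over all genes. SEs were derived from the coefficient and its F value, and intervals are at 95%. The step was tested on simulated counts. The common biological coefficient of variation was 0.295. No libraries were duplicates (chi-square over degrees of freedom at least 48.7 within groups).

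The members and lists were chosen with earlier results of these data known. Of 175 list entries 174 were matched. All members are named, and from each family list the 3 called genes with the smallest adjusted p, or the 1 with the smallest where none was called. Adamts3, Adamts13, Adamts15, Adamts18, Adamts19, Col11a1, Timp3, Reck, the other lists' markers and Acan were named for their role or after their values were seen. Col2a1, Comp and Epgn, too low to be tested, were named likewise. Genes alike were taken for the members with the highest and the lowest log2 fold change (Adamts12 and Adam8, the latter not passing the test) and for Adam17, from log2 CPM (prior count 2) among genes with a mean of at least 1 CPM. Alternatives were DESeq2 1.42.0, its size factors, limma-voom (limma 3.58.1), library totals, other filters, a replicate block, a robust fit, removal of the 20 most abundant genes, each library left out, and stricter thresholds. Leaving out both muscle-bearing libraries was added after seeing the data. A few gene results are not reported here.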

Additional observations from a re-analysis of the deposited data

How the results depend on the processing

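The 5 rising genes stayed 5 with DESeq2, its size factors, library totals, no filter, the stricter filter, limma-voom, the robust fit and removal of the 20 most abundant genes. There were 2 at an adjusted p of 0.01 and 3 in the test against a 1.5-fold change. With 1 library left out there were 2 to 5, and none fell in any fit. Over all genes, changed genes numbered 238 to 1088 with 1 library left out (204 to 606 higher and 34 to 482 lower). They numbered 2503 with DESeq2 (1279 higher, 1224 lower), 294 against 1.5-fold (254 and 40), 473 without both muscle-bearing libraries (307 and 166) and 260 at an adjusted p of 0.01 (227 and 33). Log2 fold changes near 0 turned sign with 1 library left out, ranging from -0.0071 to 0.26 for Adamts1, -0.0256 to 0.14 for Adam10, -0.26 to 0.09 for Adam17 and -0.0762 to 0.23 for Adamts15. Adam17 was at 0.21 without both muscle-bearing libraries. With a replicate block 1470 genes changed and the same 5 members rose, the calls of Adamtsl5 (adjusted p = 0.0512), Adam1a (0.0703) and Scgb1a1 (0.0655) were lost, and Reck (0.0206) and Adam22 (0.0384) passed. The samples share only a number, since same-numbered libraries correlated at 0.421, -0.052 and 0.222 in their deviations from the group means, and not every library correlated best with its own number. Adamts4 and Adamts12, at 11 to 31 counts per control library, are the members whose control levels depth limits most.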

Other observations

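Of 8 ADAM genes known from the testis, 3 passed the filter on low counts. Adam1a was the 1 that fell, from 7.36 ± 0.823 to 3.71 ± 0.223 CPM (n = 3 per group, edgeR adjusted p = 0.0437), and with each library removed in turn it missed the threshold (0.0627 to 0.16). Adamts18, too low to be tested, had 2, 6 and 7 counts in controls and 0 in each CCSP/TGFalpha library.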
